A study of Homo sapiens with 16 samples.

Results

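The 10 genes followed here encode parts of the desmosome: the desmocollins DSC2 and DSC3, the desmogleins DSG2 and DSG3, the armadillo proteins JUP, PKP1, PKP2 and PKP3, and the plakins DSP and PPL. They were chosen by name, with earlier results of these data known. Each was read as the mean of the probe sets that carry its symbol alone. All 10 were among the 20282 genes measured, through 18 probe sets.

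RNA came from 16 subcutaneous tumours, 4 per line, each grown from a derivative of the human prostate cancer cell line PC-3. The hosts were female nude mice of a BALB/c background, 5 weeks old at injection, and tumours were taken once they had reached 5 mm. Telomeres were short in the mock and mock/cre+ lines and long in LhTERTL and LhTERTL/cre+. Exogenous hTERT, which encodes the catalytic subunit of telomerase, was present in LhTERTL and absent from the other lines. By their names, the mock/cre+ and LhTERTL/cre+ lines had received the Cre recombinase. No tumour was treated further. With 1 line per group, telomere length and everything else in which the lines differ cannot be told apart, and the p-values below rest on the spread between tumours of the same line. Whether a line is a clone is not given in the sources used here. Values are on a log2 scale, with the median of the 16 arrays set to 0 for each probe set. They give differences between tumours, hold no level, and allow no comparison of one gene's level with another's. Desmosomes could therefore not be shown to be present from these values.

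Desmosomes are junctions that tie neighbouring epithelial cells together and anchor their keratin filaments. Desmocollins and desmogleins are cadherins that reach across the gap between the cells and bind each other there. Inside the cell their tails bind JUP and the plakophilins, which in turn bind desmoplakin, the protein that holds the keratin filaments. Simple epithelia rely mainly on DSG2 and DSC2, while DSG3, DSC3 and PKP1 are best known from stratified epithelia such as skin.

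Promoter sequences are shown for the 3 genes with the largest differences, to set beside their values. RefSeq gave a window of 300 bases, from 250 before to 50 after the start of transcription, for 7 of the 10 genes, on build GRCh38.p14. PKP2, PKP3 and PPL have no entry. Capitals mark CACCTG or its reverse complement CAGGTG, the E-box that the SNAI and ZEB repressors of epithelial genes bind. DSC2 has 2 windows, at chr18:31101211-31101510 and chr18:31102372-31102671, both on the minus strand. The DSP window is chr6:7541421-7541720 and the PKP1 window is chr1:201283256-201283555, both on the plus strand.
DSC2, first window: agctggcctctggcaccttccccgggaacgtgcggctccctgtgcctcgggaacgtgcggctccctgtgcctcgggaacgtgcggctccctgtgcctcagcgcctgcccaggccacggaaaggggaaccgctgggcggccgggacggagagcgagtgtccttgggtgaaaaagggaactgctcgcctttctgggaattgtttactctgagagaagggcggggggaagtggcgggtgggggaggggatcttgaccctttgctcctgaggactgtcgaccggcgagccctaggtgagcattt
DSC2, second window: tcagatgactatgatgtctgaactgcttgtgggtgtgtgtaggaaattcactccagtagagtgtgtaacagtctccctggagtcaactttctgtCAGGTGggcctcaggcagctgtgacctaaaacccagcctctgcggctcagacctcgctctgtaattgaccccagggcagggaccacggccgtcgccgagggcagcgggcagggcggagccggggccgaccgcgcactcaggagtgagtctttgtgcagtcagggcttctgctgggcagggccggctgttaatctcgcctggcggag
DSP: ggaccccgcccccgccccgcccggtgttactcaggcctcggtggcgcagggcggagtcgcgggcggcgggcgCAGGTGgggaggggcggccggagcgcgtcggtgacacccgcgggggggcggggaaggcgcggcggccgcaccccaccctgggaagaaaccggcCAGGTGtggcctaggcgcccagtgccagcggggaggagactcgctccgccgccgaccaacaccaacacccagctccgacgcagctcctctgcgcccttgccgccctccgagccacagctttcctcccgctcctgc
PKP1: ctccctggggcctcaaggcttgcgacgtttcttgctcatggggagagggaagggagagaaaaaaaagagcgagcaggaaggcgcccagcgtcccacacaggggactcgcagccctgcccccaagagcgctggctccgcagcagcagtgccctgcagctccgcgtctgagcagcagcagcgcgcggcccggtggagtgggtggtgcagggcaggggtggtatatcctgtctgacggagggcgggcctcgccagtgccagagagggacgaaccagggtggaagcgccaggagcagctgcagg
The DSP window held the E-box 2 times, 178 and 85 bases before the start, the second DSC2 window held it 1 time, 156 bases before the start, and the PKP1 window did not hold these letters. Among the genes not shown, the DSG2 window held it 2 times (232 and 116 bases before the start) and 1 of the JUP windows 2 times (54 and 43 bases before), so 4 of 9 windows held it. Of 35116 RefSeq windows of this length, 20.6% held it on either strand. The GC box GGGCGG was found 8 times in the DSP window, 2 times in the first DSC2 window, 1 time in the second and 1 time in the PKP1 window. Among the genes not shown, the DSG2 window held it 2 times and 1 of the JUP windows 3 times. At least 1 copy was present in 45.0% of windows on either strand. The grainyhead motif AACNGGTT (1.73% of windows) and the TATA box TATAAA (11.5%) were not found in any of the 9 windows of the 7 genes. The telomere repeat unit TTAGGG (9.05% of windows) was found only in the DSG3 window, 20 bases before the start. These are matches of letters, not binding sites.

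All 16 tumours were closest to tumours of their own line over all genes. The least distinct was LhTERTL/cre+ 4, with a root mean square difference of 0.244 from its own line and 0.247 from LhTERTL. The introduced gene followed the labels by 1 of the 2 TERT probe sets, which read 2.82 to 3.41 in LhTERTL and at most 0.30 in any other tumour; the other probe set read lower in LhTERTL (mean -0.14) than in mock (0.44). The log2 3′/5′ ratio of the control transcripts, a sign of RNA quality, was 0.40 to 1.21 in mock/cre+ and -0.29 to 0.30 in the other lines. The poly-A spike controls were high in 5 arrays: mock 3, LhTERTL 3, mock/cre+ 1, mock/cre+ 4 and LhTERTL/cre+ 1. In bulk tumour RNA, fewer cells that express a gene and less RNA per cell cannot be told apart.

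Averaged over the matched pairs, long-telomere tumours had higher DSC2, PKP1 and DSC3 and lower DSP and PPL than short-telomere tumours. DSC2 was 3.24-fold, PKP1 2.22-fold and DSC3 1.49-fold higher, while DSP was 2.11-fold and PPL 1.66-fold lower. Thus 3 of 10 genes rose and 2 fell at a limma adjusted p under 0.05, against 18.5% of all genes higher and 14.1% lower (32.6% called in all). The median change of the 10 genes was 0.04 log2 units, beside 0.02 over all genes, and their median size of change was 0.38, beside 0.10. DSG2, DSG3, JUP, PKP2 and PKP3 did not pass. That DSC2 and DSP differ in opposite directions was known when the genes were chosen, so the opposition is a description. The counts and sizes of change here and below include both genes, so they are descriptions too.

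The pairs gave different numbers of calls. In LhTERTL against mock only DSC2 and DSC3 were called, both higher, or 2 of 10 genes against 20.3% of all genes (12.3% higher, 7.99% lower). In LhTERTL/cre+ against mock/cre+ 6 of 10 were called, DSC2, DSC3, DSG2 and PKP1 higher and DSP and PPL lower, against 28.0% of all genes (15.0% higher, 13.0% lower). The short-telomere lines also differed from each other: 5 of 10 were called in mock/cre+ against mock, DSP higher and DSC2, DSC3, DSG2 and PKP1 lower, against 19.0% of all genes. The last 2 comparisons share the mock/cre+ tumours, so their opposite signs are not independent.

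**Figure D1:**
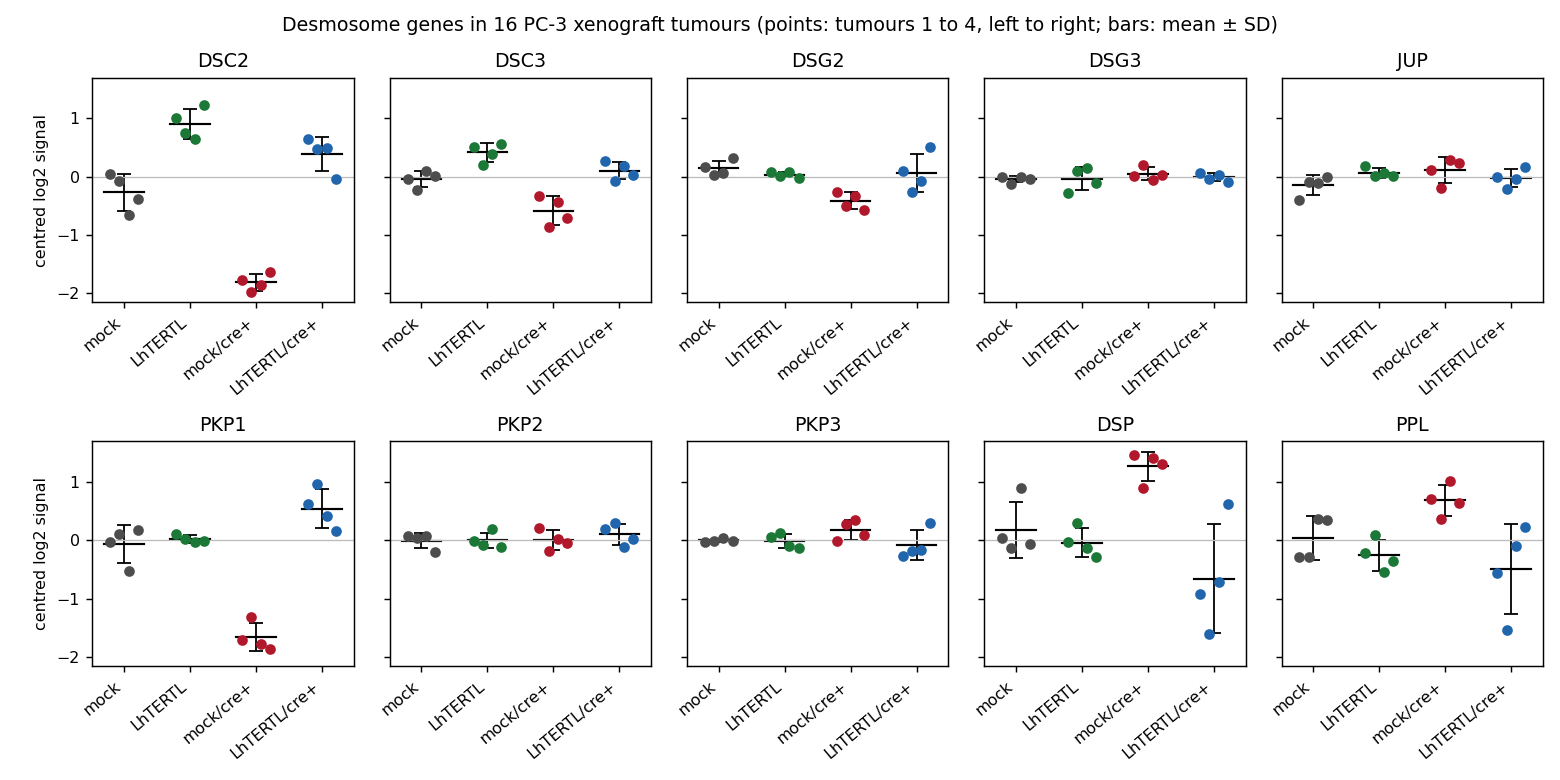
Centred log2 signal (vertical axis) of each desmosome gene in the 4 tumours of each line (horizontal axis); points are tumours 1 to 4 from left to right, and bars give the mean ± SD. The mock/cre+ tumours lie apart in DSC2 (-1.99 to -1.63) and PKP1 (-1.87 to -1.32), and the LhTERTL/cre+ tumours are spread widely in DSP (-1.62 to 0.62).

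DSC2 (Entrez gene 1824), the desmocollin found in all tissues that have desmosomes, read 0.04, -0.08, -0.66 and -0.38 in mock tumours 1 to 4 and 1.01, 0.75, 0.65 and 1.22 in LhTERTL. It read -1.78, -1.99, -1.86 and -1.63 in mock/cre+ and 0.64, 0.48, 0.49 and -0.04 in LhTERTL/cre+. Neither pair overlapped, and mock/cre+ lay below every other tumour; across pairs, LhTERTL/cre+ 4 lay below mock 1. The group means ran from 0.91 ± 0.26 (SD, n = 4) in LhTERTL through 0.39 ± 0.30 in LhTERTL/cre+ and -0.27 ± 0.31 in mock to -1.82 ± 0.15 in mock/cre+. DSC2 was 1.18 ± 0.16 log2 units (SE) higher in LhTERTL than in mock, a 2.27-fold difference (limma adjusted p = 7.48e-05). It was 2.21 ± 0.16 higher in LhTERTL/cre+ than in mock/cre+, or 4.62-fold (limma adjusted p = 1.04e-07), and the average of both was 1.69 ± 0.11 (limma adjusted p = 1.38e-08). In mock/cre+ it was 2.92-fold lower than in mock (limma adjusted p = 7.34e-06). All 3 DSC2 probe sets were called in each of these comparisons, with rises of 0.99 to 1.42 log2 units in the first pair and of 2.06 to 2.30 in the second. Without the mock/cre+ tumours the long-telomere average was 0.92 (limma adjusted p = 0.000716).

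DSC3 (Entrez gene 1825), a desmocollin of stratified epithelia, followed DSC2 with smaller differences. It read -0.05, -0.23, 0.09 and 0.01 in mock, and 0.51, 0.20, 0.39 and 0.56 in LhTERTL. In mock/cre+ it read -0.33, -0.86, -0.43 and -0.71, and in LhTERTL/cre+ 0.27, -0.07, 0.18 and 0.04. No LhTERTL tumour overlapped mock, and no LhTERTL/cre+ tumour overlapped mock/cre+, while LhTERTL/cre+ and mock overlapped. DSC3 rose by 0.46 ± 0.12 (SE) in LhTERTL against mock, 1.38-fold (limma adjusted p = 0.00881), and by 0.69 ± 0.12 in LhTERTL/cre+ against mock/cre+, 1.61-fold (limma adjusted p = 0.000251). It was 1.45-fold lower in mock/cre+ than in mock (limma adjusted p = 0.00318). The first of these calls was lost with 1 of the 2 DSC3 probe sets alone (0.38, limma adjusted p = 0.0611). The fall in mock/cre+ against mock, -0.54 ± 0.12 (SE), was -0.50 ± 0.16 once a covariate for the 3′/5′ ratio entered the fit. It was then not called (limma adjusted p = 0.0653). All mock/cre+ tumours had higher ratios than any other tumour, so this fit separates ratio and line poorly.

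DSG2 (Entrez gene 1829), the desmoglein of simple epithelia, was lower in mock/cre+ than in the other short-telomere line. It read 0.16, 0.04, 0.06 and 0.32 in mock and 0.08, 0.02, 0.08 and -0.03 in LhTERTL. It read -0.26, -0.50, -0.33 and -0.58 in mock/cre+ and 0.10, -0.26, -0.07 and 0.51 in LhTERTL/cre+. All mock/cre+ tumours lay below all mock tumours, whereas LhTERTL/cre+ 2 (-0.2629) fell just below the highest mock/cre+ tumour (-0.2622). DSG2 was 1.48-fold lower in mock/cre+ than in mock (-0.56 ± 0.12 SE, limma adjusted p = 0.00354) and 1.40-fold higher in LhTERTL/cre+ than in mock/cre+ (0.49 ± 0.12, limma adjusted p = 0.00593). With the 3′/5′ covariate neither was called (-0.53, limma adjusted p = 0.0657, and 0.45, limma adjusted p = 0.126). The rise was also not called in the 11 low spike arrays, where it was about as large (0.47, limma adjusted p = 0.0895), or with 1 of the 2 DSG2 probe sets alone (0.34, limma adjusted p = 0.0524). In LhTERTL against mock the difference was -0.11 (limma adjusted p = 0.628). DSG3 (Entrez gene 1830), the desmoglein of stratified epithelia that is the antigen of pemphigus vulgaris, read between -0.29 and 0.21 in all 16 tumours, with differences of -0.06 to 0.09 in the comparisons of line pairs, none of them called.

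**Figure D2:**
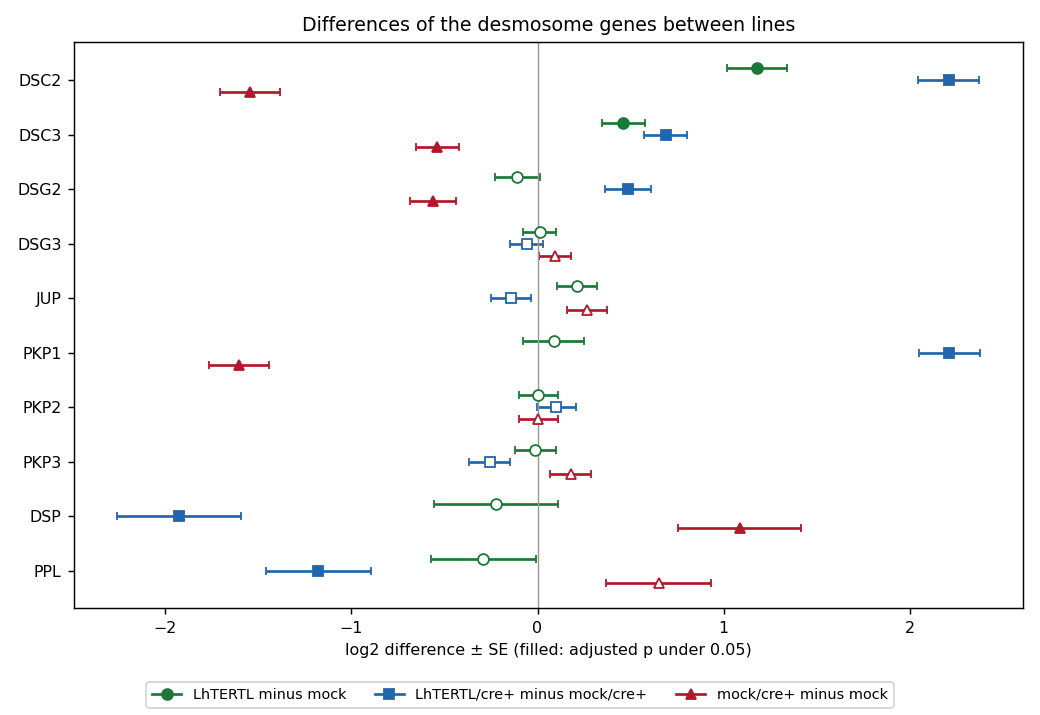
Log2 difference ± SE (horizontal axis) of each desmosome gene (vertical axis) in 3 comparisons of lines; filled symbols passed a limma adjusted p of 0.05. DSC2 and DSC3 are filled in all 3 comparisons, whereas PKP1 and DSP are filled only where mock/cre+ enters.

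PKP1 (Entrez gene 5317), a plakophilin that binds desmoplakin and clusters it at the membrane, differed where mock/cre+ was one of the lines compared. It read -0.02, 0.11, -0.53 and 0.19 in mock, and 0.11, 0.03, -0.04 and -0.0035 in LhTERTL. In mock/cre+ it read -1.71, -1.32, -1.77 and -1.87, and in LhTERTL/cre+ 0.63, 0.97, 0.42 and 0.17. The mock/cre+ tumours were lowest by a wide gap, and LhTERTL lay within the range of mock. PKP1 was 2.21 ± 0.16 (SE) higher in LhTERTL/cre+ than in mock/cre+, a 4.64-fold difference (limma adjusted p = 1.04e-07), and 3.04-fold lower in mock/cre+ than in mock (limma adjusted p = 5.37e-06). In LhTERTL against mock the difference was 0.09 ± 0.16 (limma adjusted p = 0.789). Both probe sets gave the cre+ pair's difference, at 2.20 and 2.23. The average over long and short telomeres, 1.15 ± 0.12 (limma adjusted p = 1.03e-06), was not called without the mock/cre+ tumours (0.35, limma adjusted p = 0.102).

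JUP, PKP2 and PKP3 were called in no comparison. JUP (Entrez gene 3728), or plakoglobin, which also serves the adherens junction, read -0.39 to 0.29 over all tumours. Its largest difference between lines was 0.26 in mock/cre+ against mock (limma adjusted p = 0.102). That was called without mock/cre+ 2 (0.37, limma adjusted p = 0.0158) and with array weights (0.38, limma adjusted p = 0.0173). For JUP, LhTERTL against mock minus LhTERTL/cre+ against mock/cre+ was 0.35 (limma adjusted p = 0.161). This too was called without mock/cre+ 2 (0.46, limma adjusted p = 0.0387) and with array weights (0.51, limma adjusted p = 0.033). With array weights JUP was also called higher in LhTERTL than in mock (0.33, limma adjusted p = 0.0171). PKP2 (Entrez gene 5318), the plakophilin of simple epithelia and heart, read -0.20 to 0.31, with differences of 0.00 to 0.10. PKP3 (Entrez gene 11187), found in most epithelia, read -0.27 to 0.35. Its difference in LhTERTL/cre+ against mock/cre+ was -0.26 (limma adjusted p = 0.0946), and without LhTERTL/cre+ 4, which read 0.30 against -0.27 to -0.16 in the other tumours of that line, it was -0.38 and called (limma adjusted p = 0.00289). It was also called with array weights (-0.32, limma adjusted p = 0.0221) and with the spike class as a block (-0.30, limma adjusted p = 0.0364).

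**Figure D3:**
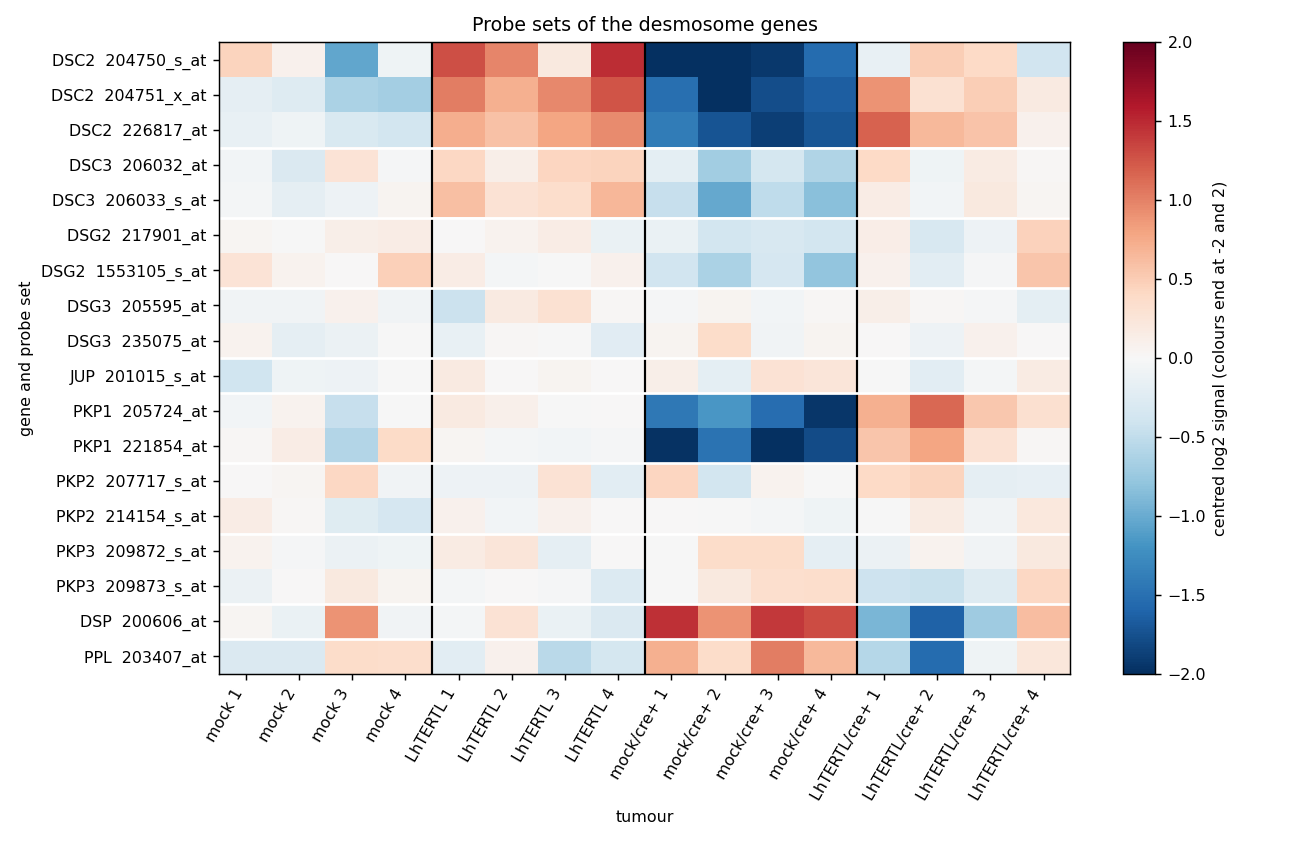
Centred log2 signal (colour, limited to -2 and 2) of each of the 18 probe sets of the desmosome genes (vertical axis) in each tumour (horizontal axis), with lines between the groups. All 3 DSC2 and both PKP1 probe sets are low in the 4 mock/cre+ tumours, and the single DSP and PPL probe sets are high there.

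DSP (Entrez gene 1832), desmoplakin, the link between the plaque and keratin filaments, read 0.03, -0.13, 0.90 and -0.06 in mock and -0.03, 0.29, -0.13 and -0.28 in LhTERTL. It read 1.46, 0.90, 1.41 and 1.31 in mock/cre+ and -0.92, -1.62, -0.71 and 0.62 in LhTERTL/cre+. The mock/cre+ tumours were the highest, with mock 3 just below the lowest of them, and LhTERTL/cre+ was split between 3 low tumours and 1 above all LhTERTL tumours. Its SD in LhTERTL/cre+, 0.94, was the widest of any of these genes in any line. DSP was 1.93 ± 0.33 (SE) lower in LhTERTL/cre+ than in mock/cre+, a 3.80-fold difference with no overlap (log2 difference -1.93, limma adjusted p = 0.000292). In LhTERTL against mock the difference was -0.22 ± 0.33 (limma adjusted p = 0.727), with overlapping tumours; it was 0.015 without mock 3 and 0.045 in the low spike arrays, neither called.

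DSP was 2.12-fold higher in mock/cre+ than in mock (1.09 ± 0.33, limma adjusted p = 0.0279). That call was lost without any one of mock 1, mock 2, mock 4, mock/cre+ 1, mock/cre+ 3 or mock/cre+ 4 (0.98 to 1.07, limma adjusted p between 0.0597 and 0.081), in the low spike arrays (1.21, limma adjusted p = 0.108) and with the 3′/5′ covariate (0.82, limma adjusted p = 0.305). The long-telomere average of DSP, -1.07 ± 0.23 (limma adjusted p = 0.00163), was not called without the mock/cre+ tumours (-0.53, limma adjusted p = 0.277), in the low spike arrays (-0.84, limma adjusted p = 0.0683) or with the 3′/5′ covariate (-0.87, limma adjusted p = 0.0675). The part of RNA quality in these differences was not tested beyond these values.

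PPL (Entrez gene 5493), periplakin, a plakin of the cornified envelope that also binds keratins, was lower in LhTERTL/cre+ than in mock/cre+, as DSP was. It read -0.29, -0.29, 0.37 and 0.35 in mock, -0.22, 0.09, -0.53 and -0.36 in LhTERTL, 0.71, 0.36, 1.03 and 0.64 in mock/cre+, and -0.57, -1.54, -0.09 and 0.23 in LhTERTL/cre+. All LhTERTL/cre+ tumours lay below all mock/cre+ tumours, and LhTERTL overlapped mock. PPL was 2.26-fold lower in LhTERTL/cre+ than in mock/cre+ (-1.18 ± 0.28 SE, limma adjusted p = 0.00402), and its difference in LhTERTL against mock was -0.29 ± 0.28 (limma adjusted p = 0.553). In mock/cre+ against mock it was 0.65 (limma adjusted p = 0.126), which was called without LhTERTL/cre+ 2 (limma adjusted p = 0.0272) and with array weights (0.82, limma adjusted p = 0.0279). It was also called when only the 8 arrays of the comparison were fitted (0.65, limma adjusted p = 0.0238). The fall in the cre+ pair was not called in the low spike arrays (-1.16, limma adjusted p = 0.0782) or with the 3′/5′ covariate (-0.96, limma adjusted p = 0.157). The long-telomere average (-0.73 ± 0.20, limma adjusted p = 0.00802) was not called in the low spike arrays (-0.62, limma adjusted p = 0.137), with the 3′/5′ covariate (-0.60, limma adjusted p = 0.145) or without the mock/cre+ tumours (-0.41, limma adjusted p = 0.323).

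The telomere differences of 4 genes were not alike in the pairs. The difference in LhTERTL against mock minus that in LhTERTL/cre+ against mock/cre+ was called for 4 of 10 genes, against 10.6% of all genes. It equals mock/cre+ against mock minus LhTERTL/cre+ against LhTERTL, so it is not independent of those comparisons. Their values were -1.60 and 0.52 for PKP1, -1.55 and -0.52 for DSC2, -0.56 and 0.03 for DSG2, and 1.09 and -0.62 for DSP. PKP1 differed by -2.13 ± 0.23 (SE, limma adjusted p = 4.11e-05), DSC2 by -1.03 ± 0.23 (limma adjusted p = 0.00761) and DSG2 by -0.59 ± 0.17 (limma adjusted p = 0.0359). The rise of DSC2 was larger in the cre+ pair. PKP1 and DSG2 were called higher only in that pair and stood at 0.09 and -0.11 in LhTERTL against mock. DSP differed by 1.70 ± 0.47 (limma adjusted p = 0.026), with the larger fall in the cre+ pair. For DSC3 the difference was -0.23 ± 0.16 (limma adjusted p = 0.466), and for PPL it was 0.89 ± 0.40 (limma adjusted p = 0.184). With quantile normalization of the already centred gene values, PKP1 alone of these was called, and DSC2 stood at -0.59 (limma adjusted p = 0.241). That step gives every array the same distribution of deviations, unlike a normalization of signal levels. Under it DSC2 in mock/cre+ against mock also went from -1.55 to -1.04. With the 3′/5′ covariate, PKP1 alone was called again, and DSC2 stood at -0.95 (limma adjusted p = 0.0626). With 1 of the 3 DSC2 probe sets alone its difference was -0.93 and not called (limma adjusted p = 0.216).

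LhTERTL/cre+ and LhTERTL both had long telomeres, and the exogenous gene was absent from the first. None of the 10 genes was called by limma, against 3.24% of all genes, and 3 had an unadjusted p under 0.05. These were DSC2 (-0.52, limma adjusted p = 0.0981), PKP1 (0.52, limma adjusted p = 0.0969) and DSC3 (-0.31, limma adjusted p = 0.175). DSP differed by -0.62 ± 0.33 (limma adjusted p = 0.396). Without LhTERTL/cre+ 4, DSP (-1.04, limma adjusted p = 0.0162) and PKP1 (0.65, limma adjusted p = 0.0259) were called. Without mock 3, PKP1 was called (0.52, limma adjusted p = 0.0494). With array weights DSC2 (-0.54, limma adjusted p = 0.0412) and PKP1 (0.51, limma adjusted p = 0.0407) were called.

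Of the 9 other genes in or beside the desmosomal cadherin run 1 was called in the pairs, their average or mock/cre+ against mock, and of the 6 genes beside DSP 3 were. In each comparison alone, between 19.0% and 32.6% of all genes were called. The share of all genes called in any of these comparisons was not computed, so these counts have no matching share. The measured desmosomal cadherin genes lie in 1 run on chromosome 18, in the order DSC3, DSC2, DSC1, DSG1, DSG4, DSG3 and DSG2. DSC1, DSG1, DSG4 and DSG3, which lie between DSC2 and DSG2, were called in none of the pairs, the average or mock/cre+ against mock, nor were TTR, B4GALT6 and TRAPPC8 beyond DSG2. CDH2, which encodes N-cadherin and precedes DSC3, was lower in LhTERTL than in mock (-0.47, limma adjusted p = 0.00648), opposite to the desmocollins there. It was lower in mock/cre+ than in mock, as they were (-0.79, limma adjusted p = 0.000118). Beside DSP on chromosome 6, BLOC1S5 was lower in LhTERTL/cre+ than in mock/cre+ (-0.36, limma adjusted p = 0.000458) and higher in mock/cre+ than in mock (0.26, limma adjusted p = 0.00926), both as DSP was, and it was lower in the long-telomere average (-0.19, limma adjusted p = 0.00362). SSR1 was higher in mock/cre+ than in mock, as DSP was (0.34, limma adjusted p = 0.00253), and also higher in LhTERTL than in mock (0.39, limma adjusted p = 0.000888) and in the long-telomere average (0.14, limma adjusted p = 0.0383). BMP6 was higher in mock/cre+ than in mock (0.56, limma adjusted p = 0.00188), while CAGE1, RIOK1 and SNRNP48 were not called.

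**Figure D4:**
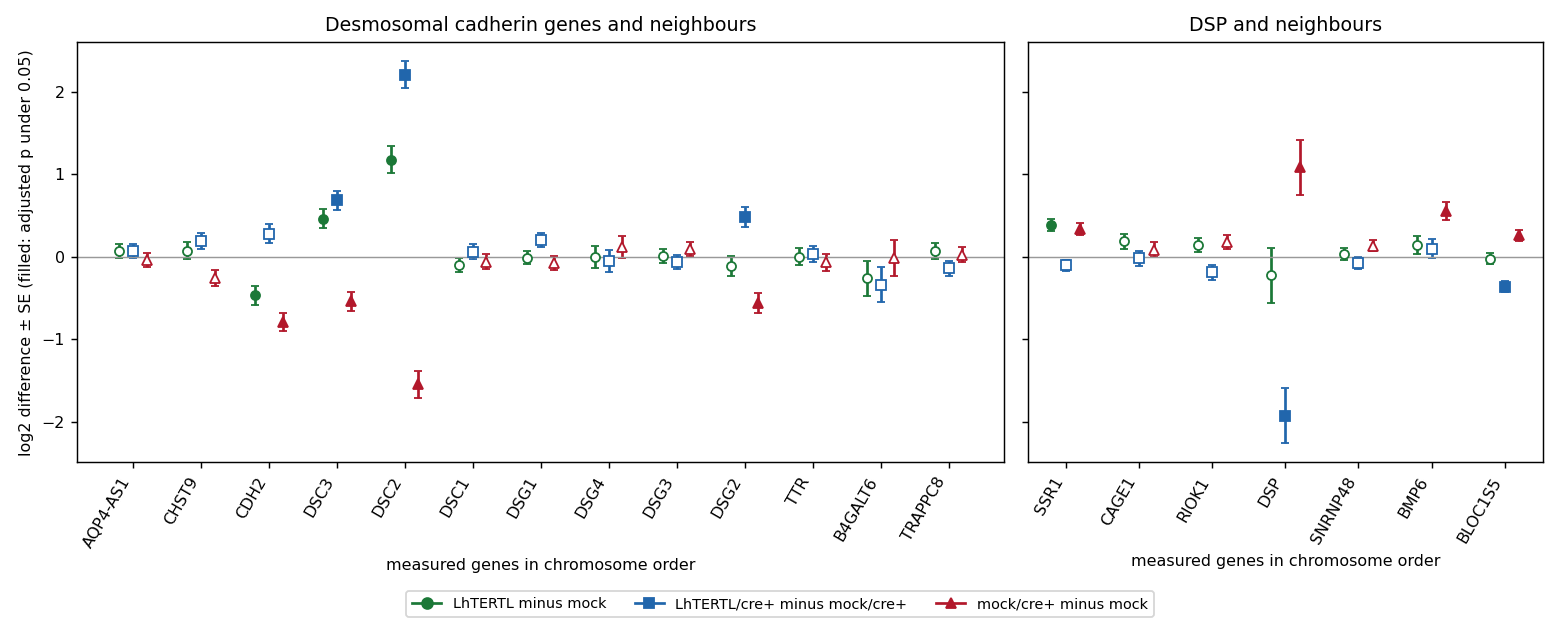
Log2 difference ± SE (vertical axis) of measured genes in chromosome order (horizontal axis) around the desmosomal cadherin run and around DSP, in 3 comparisons of lines; filled symbols passed a limma adjusted p of 0.05. DSC2 stands at 2.21 in LhTERTL/cre+ against mock/cre+ and DSC1 next to it at 0.06.

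The genes closest to DSC2 and DSP in their values over the 16 tumours were found by the root mean square difference of centred log2 signal. For DSC2, whose own root mean square was 1.07, they were SIGLEC15 at 0.313, ZNF239 at 0.326 and ZNF22 at 0.376. For DSP, whose own was 0.867, they were ADAMTS3 at 0.206, DHRS3 at 0.293 and LOX at 0.306.

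Of 8 further desmosome and cornified envelope genes (DSC1, DSG1, DSG4, PKP4, EVPL, PERP, CDSN and PNN), limma called 0 in the long-telomere average and 0 in LhTERTL against mock, with 0 at an unadjusted p under 0.05 in each. In LhTERTL/cre+ against mock/cre+ it called 0, with 2 at an unadjusted p under 0.05. PKP4, a plakophilin relative, was the 1 called in mock/cre+ against mock (0.23, limma adjusted p = 0.0229). Of all genes 32.6%, 20.3%, 28.0% and 19.0% were called in these comparisons, in that order. Of 16 regulators of desmosomes, 2 were higher and 4 lower in long-telomere tumours, against 18.5% of all genes higher and 14.1% lower. Their median was 0.00 beside 0.02 over all genes. LGALS3, a galectin, fell by 0.56 (limma adjusted p = 1.36e-06), and the calcium pumps ATP2A2 and ATP2C1, mutated in skin diseases in which keratinocytes separate, fell by 0.23 and 0.28 (limma adjusted p = 0.000966 and 0.00147). ATP2C1 was called only in the cre+ pair (-0.40, limma adjusted p = 0.00171). It stood at -0.16 in LhTERTL against mock (limma adjusted p = 0.219), without a called difference between pairs (limma adjusted p = 0.246). PRKCA, a kinase that weakens desmosomal adhesion, rose by 0.20 (limma adjusted p = 0.00483); its difference was 0.01 in LhTERTL against mock (limma adjusted p = 0.933) and 0.39 in the cre+ pair (limma adjusted p = 0.00053), and the pairs differed (limma adjusted p = 0.0235).

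Of 15 genes for keratins and vimentin, the filament proteins of the cell, 4 were higher and 0 lower in long-telomere tumours, with a median of 0.08. Of all genes 18.5% were higher and 14.1% lower in that average. KRT19 rose by 0.35 (limma adjusted p = 2.55e-05), KRT20 by 1.04 (limma adjusted p = 0.000134), VIM by 0.44 (limma adjusted p = 0.000695) and KRT6A by 0.88 (limma adjusted p = 0.0472). KRT19 and KRT20 were called higher in both pairs. KRT19 was also lower in mock/cre+ than in mock (-0.35, limma adjusted p = 0.00159), as was KRT20 (-1.49, limma adjusted p = 0.000327). KRT20 was lower in LhTERTL/cre+ than in LhTERTL as well (-1.49, limma adjusted p = 0.00203). VIM stood at 0.02 in LhTERTL against mock (limma adjusted p = 0.954) and 0.87 in the cre+ pair (limma adjusted p = 4.94e-05), and the pairs differed (limma adjusted p = 0.00445). KRT6A was called in LhTERTL against mock (1.5, limma adjusted p = 0.028) and stood at 0.26 in the cre+ pair (limma adjusted p = 0.752), without a called difference between pairs (limma adjusted p = 0.276). In LhTERTL against mock 6 were higher and 0 lower, and in LhTERTL/cre+ against mock/cre+ 3 were higher and 3 lower. Over all genes 12.3% were higher and 7.99% lower in the first pair, and 15.0% and 13.0% in the second. Of 12 adherens junction genes only CTNND1, or p120-catenin, was called in the long-telomere average, lower by 0.30 (log2 difference -0.30, limma adjusted p = 3.86e-05). Of 9 hemidesmosome genes, which anchor cells to the matrix below, 4 were higher and 2 lower, with a median of 0.09. ITGA6 rose by 0.54 (limma adjusted p = 2.66e-05), PLEC by 0.30 (limma adjusted p = 0.00241) and LAMB3 by 0.30 (limma adjusted p = 0.00477), while LAMA3 fell by 0.35 (limma adjusted p = 0.00337). ITGA6 was called higher in both pairs. PLEC was -0.06 in LhTERTL against mock and 0.67 in the cre+ pair, LAMA3 was -0.01 and -0.69, and both differed between pairs (limma adjusted p = 0.00301 and 0.015). LAMB3 was 0.16 and 0.45, called only in the cre+ pair (limma adjusted p = 0.00443), without a called difference between pairs (limma adjusted p = 0.288).

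Host skin also contains desmosomes, and the probes are human, so host RNA could be read only where it cross-hybridises. Of 12 keratinocyte markers 0 were higher and 1 lower (KRT1, -0.24, limma adjusted p = 0.00329) in long-telomere tumours. Beside this and the lists below, 18.5% of all genes were higher and 14.1% lower in long-telomere tumours. The mean of this list ran from -0.05 to 0.06 in mock, -0.08 to 0.07 in LhTERTL, -0.07 to 0.11 in mock/cre+ and -0.06 to 0.05 in LhTERTL/cre+. Of 12 muscle markers 1 was higher and 0 lower, and the mean of that list ran from -0.21 to 0.04, -0.10 to 0.18, -0.11 to 0.18 and -0.18 to 0.16 in the same order. Of 8 fibroblast markers 2 were higher, led by COL1A1 (0.30, limma adjusted p = 0.0037). The tumour means of the fibroblast list ran from -0.09 to 0.06 in mock, 0.01 to 0.28 in LhTERTL, -0.10 to 0.10 in mock/cre+ and -0.04 to 0.05 in LhTERTL/cre+. Of 7 endothelial markers 1 was higher and 1 lower, of 8 macrophage markers 1 was lower, of 5 adipocyte markers 1 was higher, and of 3 erythrocyte markers limma called 0 (0 at an unadjusted p under 0.05). In mock/cre+ against mock, where 19.0% of all genes were called, 2 of 5 adipocyte markers were higher, with a median of 0.22. These were CFD at 0.54 (limma adjusted p = 0.00922) and CIDEC at 0.31 (limma adjusted p = 0.00736). The adipocyte list means did not overlap there, at -0.23 to -0.09 in mock and 0.02 to 0.16 in mock/cre+, beside -0.19 to 0.19 in LhTERTL and -0.03 to 0.25 in LhTERTL/cre+. In the same comparison 2 of 12 muscle markers (MB at 0.90, limma adjusted p = 0.000435, and TTN at 0.23, limma adjusted p = 0.0357) and 1 of 8 fibroblast markers (COL1A1 at 0.34, limma adjusted p = 0.0244) were higher, and none of the other marker lists had a called gene. The part of these cells in the differences of the desmosome genes was not tested.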

How the data were processed

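Per the labels, RNA of 16 tumours was labelled with biotin from 100 ng and read on Affymetrix arrays, 1 per tumour. The deposited log2 values were made with RMA, per the submitters' processing notes; version, platform and annotation release are not given in the sources used here. The values show that each probe set was also centred on its median over the 16 arrays (largest remaining median 5e-07), so no level, dim-probe filter or mean-variance trend could be had. Both deposited tables held identical values.

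Of 54675 probe sets, 62 were controls, 41476 named 1 gene, 961 several and 12176 none. Probe sets of 1 gene were averaged by Entrez gene, giving 20282 genes, of which 19252 matched a RefSeq gene table that updated their symbols. Of the desmosome genes 7 had several probe sets and 3 had 1. limma 3.58.1 in R 4.3.3 fitted 1 mean per line over all 16 arrays, with moderated variances and two-sided tests; p-values were adjusted by Benjamini-Hochberg over the 20282 genes, with a threshold of 0.05. The comparisons were each telomere pair, their average (long minus short), their difference, mock/cre+ against mock, and LhTERTL/cre+ against LhTERTL. The 4 arrays per line limit the precision. The same code was tested on simulated data. Tables were made in Python 3.11.15 with pandas 2.3.3 and numpy 2.4.6, and plots with matplotlib 3.10.9.

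The desmosome genes and the gene lists were chosen with earlier results of these data known. Named were all 10 desmosome genes, their neighbours up to 3 genes away, the 3 genes closest to DSC2 and to DSP, TERT, and from each list up to 4 called genes by smallest adjusted p; PKP4, CFD, CIDEC, MB, TTN and genes in the closing section fall outside this rule and were named after their values were seen. Alternatives were other gene values, normalizations, thresholds and variance models, array weights, a replicate block, fewer arrays, line means, array controls, and leaving out each array. The normalizations were run on the centred gene values. An array counted as high in poly-A spike signal when its centred log2 mean exceeded 0.5, which gave 5 high and 11 low arrays. Replicate numbers did not pair the tumours by the labels; the check is in the closing section.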

Additional observations from a re-analysis of the deposited data

Results flagged for a closer look

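In 40 sets of 4 tumours (10 genes in 4 lines), 2 had 1 tumour far from the other 3 by Dixon's test, with a critical value of 0.829, and chance gives about 1 in 20. DSP read 0.90 in mock 3, against -0.13 to 0.03 in the other mock tumours, with a gap of 0.839 of the whole range; this array was also 1 of the 5 with high poly-A spike signal. PKP2 read -0.20 in mock 4, against 0.03 to 0.08, with a gap of 0.831 of the range.

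The telomere difference itself differed between the pairs for 4 genes, by limma's test of that difference. The tested value equals mock/cre+ against mock minus LhTERTL/cre+ against LhTERTL, so it is not separate from those comparisons. LhTERTL against mock minus LhTERTL/cre+ against mock/cre+ was -1.03 for DSC2 (limma adjusted p = 0.00761), -0.59 for DSG2 (limma adjusted p = 0.0359), 1.70 for DSP (limma adjusted p = 0.026) and -2.13 for PKP1 (limma adjusted p = 4.11e-05). The DSP call was lost without mock 1, mock 2, mock 4, LhTERTL 2 or mock/cre+ 3 (1.59 to 1.66, limma adjusted p 0.0512 to 0.0581). The DSG2 call was lost without mock 1, mock 4, LhTERTL 1, LhTERTL 2, LhTERTL 4, mock/cre+ 2, mock/cre+ 4 or LhTERTL/cre+ 1 (-0.61 to -0.54, limma adjusted p 0.0558 to 0.0806).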

How the results depend on the processing

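The 10 genes in 6 comparisons gave 60 results, 22 of them called. Of the 22, 8 stayed called under every alternative run for their comparison, the high spike arrays included. Line means were run only for long minus short, where no call stayed, so none of the 8 faced that alternative. No called value changed direction. Of 748 alternative values of called results, 68 lost the call. Over all 2016 alternative values, 20 gained a call, and 67 changed sign without being called under either setting. These totals include the second deposited table, whose identical values could change nothing. Of the 10 genes, those called in long minus short numbered 5; this became 2 without the mock/cre+ arrays, 3 in the low spike arrays, 3 with the 3′/5′ covariate, and 0 by limma on line means (2 at an unadjusted p under 0.05, lowest limma adjusted p 0.288), where 4 values enter and 0 of 20282 genes were called. Over all genes the calls went from 6603 to 4369 without mock/cre+ and to 5216 with the covariate. In LhTERTL against mock 2 became 1 at 1.5-fold or more. In LhTERTL/cre+ against mock/cre+ 6 became 5 at 1.5-fold or more, 4 in the low spike arrays and 4 with the 3′/5′ covariate, which took all genes from 5679 to 3490. In mock/cre+ against mock 5 became 3 at 1.5-fold or more, 2 with the 3′/5′ covariate (all genes, 3863 to 1835) and 2 when only high spike arrays entered. The difference between pairs went from 4 to 1 with quantile normalization, 2 at an adjusted p under 0.01, 2 in the low spike arrays, 1 with the 3′/5′ covariate (all genes, 2151 to 974) and 1 when only high spike arrays entered. In LhTERTL/cre+ against LhTERTL 0 became 2 with array weights. Leaving out 1 array gave 2 to 4 calls for the difference between pairs and 0 to 2 for LhTERTL/cre+ against LhTERTL. The high spike set was added after seeing the data; it holds 1 tumour of each line but mock/cre+, which has 2, so 1 residual degree of freedom remains, a lone tumour is assumed to vary like mock/cre+, and calls lost or gained there say nothing about stability. Apart from these constructions, the cause was not tested.

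With the replicate number as a replicate block no count changed (5, 2, 6, 5, 0 and 4). Over the 24 pairs of equal-numbered arrays the correlation of deviations from group means ran from -0.325 to 0.369, 9 exceeded 0.1, and the best partner of 5 of 16 arrays bore the same number. A variance trend could not be fitted to centred values. The single DSP, JUP and PPL probe sets have no second probe set to compare, and 4 arrays per line and the lack of levels limit what small differences can show.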

Other observations

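The classical cadherins, which share catenins with the desmosome, also differed between lines; they were named after their values were seen. CDH1, or E-cadherin, was higher than in mock both in LhTERTL (0.91, limma adjusted p = 0.0111) and in mock/cre+ (0.91, limma adjusted p = 0.0114), and lower in LhTERTL/cre+ than in mock/cre+ (-0.75, limma adjusted p = 0.0247). CDH3, or P-cadherin, was lower in LhTERTL/cre+ than in mock/cre+ (-0.77, limma adjusted p = 0.00109). GRHL1, a transcription factor of epithelial junction genes, was higher in mock/cre+ than in mock (0.63, limma adjusted p = 0.0007) and lower in LhTERTL/cre+ than in mock/cre+ (-0.61, limma adjusted p = 0.000487). KRT18, a keratin of simple epithelia, rose by 0.58 in LhTERTL against mock (limma adjusted p = 0.00181) and fell by 0.51 in LhTERTL/cre+ against mock/cre+ (limma adjusted p = 0.00274). Between the short-telomere lines KRT18 differed by more, and was higher in mock/cre+ than in mock (0.91, limma adjusted p = 4.85e-05). VIM was lower in mock/cre+ than in mock (-0.61, limma adjusted p = 0.00182), the line whose control 3′/5′ ratio was highest; the part of that ratio was not tested for these genes.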
